A study of Mus musculus with 6 samples.

Results

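The genes that absorb dietary lipid in the enterocyte and pack it into lipoproteins were followed in mouse small intestine tumors. They were 10 genes chosen by symbol, among the 21878 genes of the deposited table: Apoa1, Apoa4, Apob, Apoc3, Mttp, Fabp1, Fabp2, Rbp2, Npc1l1 and Dgat1. Each had 1 row. The tumors came from mice of the genotype Prkcif/fPrkczf/f;Villin-Cre, in which a Cre recombinase driven by the villin promoter, active in intestinal epithelium, targets floxed Prkci and Prkcz, the genes of the atypical protein kinases C. That genotype was common to both groups, and neither tumors with intact Prkci and Prkcz nor normal intestine were analysed here. Per the labels, 3 tumors came from vehicle-treated mice (replicates 1 to 3) and 3 from mice given PEGPH20 (replicates 4 to 6), a pegylated hyaluronidase that degrades the matrix polymer hyaluronan. Dosing, at 0.0375 mg/kg and 2 doses a week, began at 11 weeks of age and went on for 3 weeks, and all tumors were labelled as 14 weeks old. Total RNA was made into 3′ tag libraries, which held 2075588 to 2832876 reads in genes. Whether the 6 tumors came from 6 mice is not in the labels, and p-values therefore measure the scatter among these tumors, which may be technical.

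Absorptive enterocytes take up fatty acids, monoglycerides, cholesterol and retinol at the brush border, re-esterify them at the endoplasmic reticulum and load them onto apolipoprotein B to form chylomicrons, which leave for the lymph. Within this route Npc1l1 is the cholesterol importer of the brush border, Fabp1, Fabp2 and Rbp2 are cytosolic carriers of fatty acids and retinol, Dgat1 makes the final step of triglyceride synthesis, and Mttp transfers lipid onto apolipoprotein B. Apob is the scaffold of the particle, and Apoa1, Apoa4 and Apoc3 are exchangeable apolipoproteins on its surface. In the intestine these genes are known as targets of the nuclear receptor HNF4 and its partners GATA4 and CDX2, and their levels are graded along the crypt to villus axis and along the length of the gut.

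The 250 bases before the transcription start are shown for the 3 carriers, since Fabp2 over Fabp1 was the most variable of the 7 ratios between members computed here and the 3 promoters differed in the motifs they held. The sequences are from RefSeq, on GRCm38.p6, where 8 of the 10 genes had an entry in the promoter table. Capitals mark matches to the motifs searched on either strand. These were an HNF4 core (CAAAGTCCA) and part of a direct repeat bound by nuclear receptors (CAAAGGTCA). The others were a GATA site (AGATAA), a CDX2 site (TTTATNG) and a TATA box (TATAAA).
Rbp2: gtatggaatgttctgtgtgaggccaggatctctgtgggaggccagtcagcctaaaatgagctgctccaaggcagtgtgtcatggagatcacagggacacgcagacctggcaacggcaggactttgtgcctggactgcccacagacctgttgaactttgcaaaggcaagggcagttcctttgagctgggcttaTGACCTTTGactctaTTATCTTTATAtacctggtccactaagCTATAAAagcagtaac
Fabp1: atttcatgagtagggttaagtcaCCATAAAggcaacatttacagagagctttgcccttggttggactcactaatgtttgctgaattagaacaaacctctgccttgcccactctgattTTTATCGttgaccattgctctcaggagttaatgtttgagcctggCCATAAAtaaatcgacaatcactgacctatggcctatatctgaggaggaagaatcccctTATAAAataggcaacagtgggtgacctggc
Fabp2: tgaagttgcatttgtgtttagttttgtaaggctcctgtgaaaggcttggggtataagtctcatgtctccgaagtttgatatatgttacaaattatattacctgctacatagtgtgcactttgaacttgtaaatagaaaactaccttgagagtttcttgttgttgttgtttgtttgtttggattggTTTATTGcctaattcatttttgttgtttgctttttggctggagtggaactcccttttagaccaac
The Rbp2 sequence is chr9:98490287-98490536 on the plus strand, the Fabp1 sequence is chr6:71199629-71199878 on the plus strand and the Fabp2 sequence is chr3:122894822-122895071 on the plus strand. In Rbp2 the capitals hold the partial nuclear receptor repeat from -58 to -50, counted from the start. Then come a GATA site from -43 to -38 that runs into a TATA box from -38 to -33, and a second TATA box from -15 to -10 inside a CDX2 match. Fabp1 held CDX2 matches starting at -227, -133 and -89 and a TATA box from -30 to -25. Fabp2 held a single CDX2 match, from -65 to -59. Among 32851 promoter windows of the same 300 bases, the partial nuclear receptor repeat was in 0.478%, the HNF4 core in 0.475%, the GATA site in 11.2%, the CDX2 site in 10.9% and the TATA box in 13.6%. Among the 8 windows of these genes the counts were 1, 0, 1, 4 and 3 in the same order. The windows of Apoa1, Apoa4, Mttp and Npc1l1 held none of the 5 motifs, and that of Apob held a CDX2 match and a TATA box that overlap. A match is a description of letters and not evidence of binding. The RefSeq start of Rbp2 lies inside the GENCODE gene, which begins at base 98486115 of chromosome 9. So does that of Mttp, on the minus strand of chromosome 3. The 250 bases before it end at base 138143668, while the GENCODE gene begins at base 138144968. The RefSeq starts of Fabp1, Apoa1, Apoa4 and Apob also lie inside their GENCODE genes, by fewer bases. For Fabp1 the GENCODE gene begins at base 71199827 of chromosome 6. That of Npc1l1 lies outside its gene, and only that of Fabp2 matches. The motif counts and positions therefore hold for the RefSeq starts only.

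The library of PEGPH20 replicate 5 was unlike the others. Its Pearson correlation with the others over the genes tested was 0.844 to 0.907, against 0.945 to 0.979 among the other 5. All 10 lipid genes had their highest level in it, as did 18.4% of the 11389 genes tested. The lists of 5 Paneth cell genes and of 16 enterocyte hydrolases and transporters summed to 4020 and 10492 CPM there, against 327 to 753 and 2856 to 4389 CPM in the other libraries. The list of 4 fetal-like genes summed to 56.7 CPM, against 1116 to 1504, and that of 8 pan-epithelial genes to 5027 CPM, against 7375 to 8738. The pan-epithelial genes did not move together. Krt8, Krt18, Krt19 and Cdh1 were lowest of all libraries in replicate 5. Vil1 was highest there, at 768 CPM, and Epcam, at 1668 CPM, was above every vehicle library. Cldn7 and Elf3 were neither lowest nor highest there. In bulk tissue, more or fewer cells of a type and more or less RNA per cell cannot be told apart. The treatment difference of each of the 10 lipid genes is therefore given below with all 6 libraries and without that library. Most differences of other genes are given with all 6 libraries only, and were not all checked for the weight of that library.

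Levels are CPM, a gene's reads scaled to a library total of 1000000, in which 1 read was worth 0.353 to 0.482 CPM and 3 reads, the floor of detection used here, 1.06 to 1.45 CPM. The kit takes tags near the 3′ end, so a long transcript gives no more tags than a short one and CPM can order the genes without a length term, though priming differs between transcripts. By the mean over 6 libraries Apoa1 was the 15th most abundant gene in the table, Fabp2 the 24th, Apob the 45th and Fabp1 the 95th, while Npc1l1 ranked 1371st and Apoc3 1466th. In vehicle tumors the order of mean CPM was Apoa1 (1798 ± 739, SD, n = 3), Fabp2 (1029.8 ± 343), Apob (836 ± 187), Apoa4 (503 ± 295), Fabp1 (394 ± 315), Mttp (225 ± 125), Dgat1 (122 ± 41.7), Rbp2 (107 ± 62.4), Npc1l1 (63.9 ± 12.8) and Apoc3 (44.3 ± 26.6). Every neighbouring pair in that order overlapped in its range over the 3 libraries. Summed, the 10 genes took 7449, 4566 and 3355 CPM in vehicle replicates 1 to 3, and 5277, 16181 and 5691 CPM in PEGPH20 replicates 4 to 6, or 0.336% to 1.62% of all reads. Vehicle replicate 1 thus lay above both PEGPH20 replicates 4 and 6, and the groups overlapped.

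**Figure D1:**
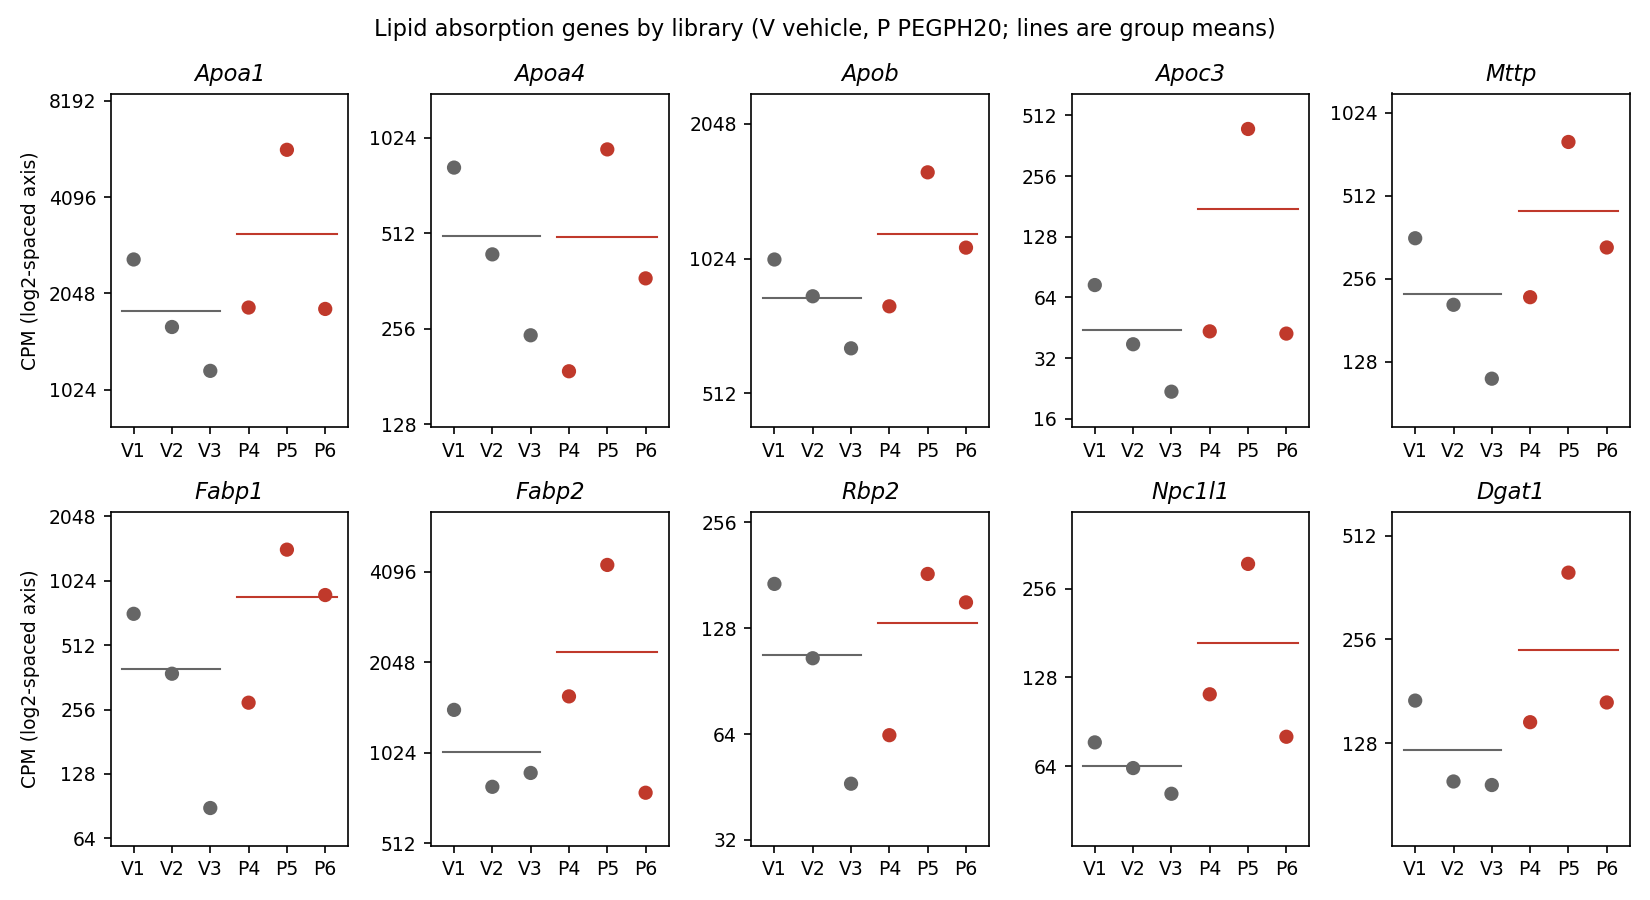
CPM of the 10 lipid absorption genes in each library on a log axis, with vehicle replicates (V1 to V3) in grey, PEGPH20 replicates (P4 to P6) in red and a line at each group mean. P5 is the highest library in every panel, V1 is the highest vehicle library in every panel, and only Npc1l1 has all 3 PEGPH20 libraries above all 3 vehicle libraries, as 9.71% of all genes tested have.

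None of the particle's scaffold and surface proteins passed the test. Apob read 1019, 844 and 646 CPM in the vehicle libraries and 801, 1596 and 1084 CPM in the PEGPH20 libraries, and its groups overlapped. On the log2(CPM + 1) scale, its PEGPH20 level minus its vehicle level was 0.44 (95% interval -0.19 to 1.07; limma adjusted p = 0.411), and 0.18 (-0.23 to 0.60) without replicate 5. Apoa1, the main protein of high density lipoprotein, read 2614, 1607 and 1172 CPM against 1849, 5757 and 1830.5 CPM. Replicates 4 and 6 lay inside the vehicle range, and the difference of 0.66 (-0.45 to 1.78; adjusted p = 0.474) was 0.11 (-0.46 to 0.68) without replicate 5.

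Apoa4, a chylomicron protein made in the intestine, was lowest in a PEGPH20 library. It read 824, 439 and 244 CPM with vehicle and 188, 941 and 369 CPM with PEGPH20. Its means were nearly equal, 503 ± 295 and 499 ± 393 CPM, because replicate 5 was high and replicate 4 was the lowest of all. The log2 difference was -0.15 (-1.58 to 1.29; adjusted p = 0.913), and -0.76 (-1.69 to 0.18; adjusted p = 0.379) without replicate 5. The direction turned positive under the scaling to pan-epithelial genes and in both count models, so no direction is given for Apoa4.

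Apoc3, an inhibitor of lipoprotein lipase, stood highest in replicate 5 relative to the other libraries. It read 73.7, 37.5 and 21.8 CPM with vehicle and 43.4, 439 and 42.3 CPM with PEGPH20. The level in replicate 5 was 10.03 times the mean of the other 5 libraries and 5.95 times the highest of them, whereas replicates 4 and 6 lay within the vehicle range. Its difference of 1.23 (-0.83 to 3.29; adjusted p = 0.470) was 0.12 (-0.72 to 0.96) without that library.

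Apoa1, Apoc3 and Apoa4 lie next to each other on chromosome 9 between bases 46228580 and 46243459 (GRCm38), a span of 14.9 kb, with Apoc3 on the minus strand between its plus-strand neighbours. Their ratios were not constant. Apoa1 over Apoa4 was 3.17, 3.66 and 4.80 in vehicle libraries and 9.83, 6.12 and 4.96 in PEGPH20 libraries, so that the groups did not overlap, although the vehicle maximum and the PEGPH20 minimum were close. The ratio was singled out after its values were seen and is given without a test. Apoa1 over Apoc3 was 35.5 to 53.8 in 5 libraries and 13.1 in replicate 5. Of the other genes around the cluster, 7 were tested, 4 were higher and 3 lower with PEGPH20, and none passed the threshold. Their median difference was 0.09, and -0.05 without replicate 5. The neighbours with the smallest p-values were Tagln, a smooth muscle actin-binding protein (63.5 ± 5.40 and 45.7 ± 7.80 CPM, -0.47, adjusted p = 0.211), and Pafah1b2 (56.4 ± 8.84 and 43.2 ± 8.55 CPM, -0.39, adjusted p = 0.337).

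The transfer protein Mttp read 359, 206 and 111 CPM with vehicle and 219, 803 and 332 CPM with PEGPH20. The libraries of the groups interleaved. The difference was 0.94 (-0.32 to 2.20; adjusted p = 0.382), and 0.42 (-0.42 to 1.26) without replicate 5. Mttp and its substrate did not keep a fixed ratio, since Apob over Mttp was 2.84, 4.10 and 5.82 with vehicle and 3.66, 1.99 and 3.26 with PEGPH20, lowest where Mttp was highest. Trmt10a lies on the opposite strand and overlaps Mttp, at 13.3 to 21.4 CPM, and the sources used here do not state whether counting used strand.

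The cytosolic carriers shared their highest libraries, vehicle replicate 1 within its group and PEGPH20 replicate 5 over all, and differed in where they were low. Fabp1, the liver-type fatty acid binding protein, read 718, 377 and 88.7 CPM with vehicle and 276, 1433 and 879 CPM with PEGPH20. Its highest vehicle library held 8.10 times its lowest, the widest vehicle spread of the 10 genes. The difference was 1.28 (-0.64 to 3.20; adjusted p = 0.427), and 0.77 (-0.84 to 2.37) without replicate 5. Fabp2, the intestinal-type protein, read 1423, 789 and 878 CPM and then 1578, 4318 and 754 CPM. Its vehicle libraries were within 1.80 times of each other, and PEGPH20 replicate 6 was the lowest of all 6. The difference was 0.79 (-0.53 to 2.12; adjusted p = 0.470), and 0.13 (-0.54 to 0.80) without replicate 5. Rbp2, which carries retinol and retinal in the enterocyte, read 171, 105 and 46.3 CPM and then 63.5, 183 and 152 CPM, with replicate 5 only 1.07 times the next library. The difference was 0.36 (-0.87 to 1.58; adjusted p = 0.738), and 0.06 (-0.995 to 1.11) without replicate 5. The unclassified transcript Gm37113 lies within Rbp2 on its strand, at 7.64 to 29.6 CPM.

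Set against each other, Fabp2 over Fabp1 was 1.98, 2.10 and 9.90 with vehicle and 5.72, 3.01 and 0.858 with PEGPH20. Over the 6 libraries this ratio spanned 11.5 times from lowest to highest, the widest of the 7 ratios computed. Fabp2 over Rbp2 was 8.32, 7.51 and 19.0 with vehicle and 24.8, 23.7 and 4.98 with PEGPH20. The libraries with the least Fabp1 and Rbp2, vehicle replicate 3 and PEGPH20 replicate 4, were also those with the most Fabp6 and Slc10a2. Fabp6, the bile acid carrier of the ileum, read 2.41, 19.5 and 245 CPM with vehicle and 167, 1.25 and 0.455 CPM with PEGPH20. Slc10a2, the bile acid importer of the ileum, read 22.2, 65.4 and 156 CPM and then 116, 11.3 and 18.2 CPM. Fabp6 is under the 3-read floor in replicate 6. Both were singled out after their values were seen. The other ileal genes tested, the bile acid exporter subunits, were highest in replicate 5, followed by PEGPH20 replicate 4 and then vehicle replicate 3. Slc51a read 128, 84.5 and 143 CPM and then 235, 335 and 96.5 CPM. Slc51b read 31.3, 20.3 and 45.9 CPM and then 56.8, 119 and 24.1 CPM. Apoa4 was also lowest in vehicle replicate 3 and PEGPH20 replicate 4. In replicate 5, however, Fabp2 over Rbp2 was high while Fabp6 and Slc10a2 were low. The labels give no position along the small intestine for any tumor, and the part of position in the carrier ratios was not tested.

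**Figure D2:**
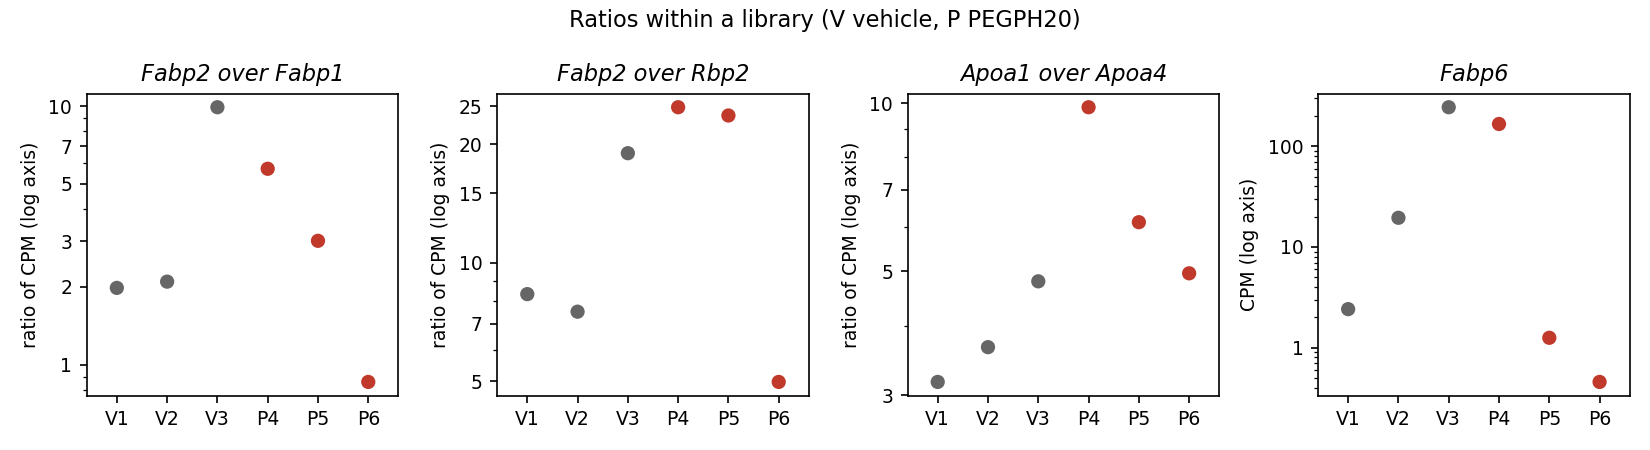
Ratios of CPM within each library for Fabp2 over Fabp1, Fabp2 over Rbp2 and Apoa1 over Apoa4, and the CPM of the ileal gene Fabp6, all on log axes (vehicle V1 to V3 grey, PEGPH20 P4 to P6 red). V3 and P4 are the highest of the 6 in Fabp6 (245 and 167 CPM) and in Fabp2 over Fabp1 (9.90 and 5.72), and they belong to different groups.

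Npc1l1, the brush border cholesterol importer and target of ezetimibe, came closest to a treatment difference. It read 77.1, 63.1 and 51.6 CPM with vehicle and 112, 311 and 80.6 CPM with PEGPH20, so that every PEGPH20 library was above every vehicle library. This was so for 1 of the 10 genes, against a background of 9.71% of all genes tested. The difference was 1.15 (0.10 to 2.20), with an unadjusted limma p of 0.0354 and an adjusted p of 0.245. Without replicate 5 it was 0.58 (0.16 to 1.01), with an unadjusted p of 0.0123 and an adjusted p of 0.138, so it missed the threshold of 0.05 both ways. Over the other settings its adjusted p ran from 0.0688, with DESeq2, to 0.484. The means were 63.9 ± 12.8 and 168 ± 125 CPM (n = 3 each).

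Dgat1, which completes triglycerides, read 170.1, 99.0 and 96.7 CPM with vehicle and 147, 400.1 and 168 CPM with PEGPH20. Vehicle replicate 1 lay above PEGPH20 replicates 4 and 6, which kept the groups overlapping. The difference was 0.86 (-0.05 to 1.77; adjusted p = 0.297), and 0.41 (-0.07 to 0.90; adjusted p = 0.352) without replicate 5. Npc1l1 over Dgat1 ran from 0.453 to 0.777, the narrowest range of the 7 ratios between members computed here.

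Across all 10 genes, none passed an adjusted p of 0.05 for PEGPH20 against vehicle. The background was 0.0790% of the 11389 genes tested, that is 3 higher and 6 lower. No member passed without replicate 5 either, when 2.98% of genes did, nor with edgeR (10 genes called in all) or DESeq2 (277 called, 2.43% of the genes it gave an adjusted p). DESeq2 gave no adjusted p for Apoc3, so that model covers 9 of the 10. At an unadjusted p under 0.05 there was 1 member, Npc1l1, with and without replicate 5. In direction, 9 of 10 were higher with PEGPH20, all but Apoa4, whose sign turned with the scaling, against 40.2% of all genes tested, with a median log2 difference of 0.83 against -0.09. Without replicate 5, again 9 of 10 were higher, against 48.1% of genes, but the median was 0.16 against -0.01. Most of the difference in summed level likewise sat in that library. The group means of the sum were 5124 ± 2103 and 9049.6 ± 6179 CPM (n = 3 each), and replicates 4 and 6 averaged 5484 CPM. Markers of other cell types also differed between the groups. The 5 fibroblast genes summed to 2903, 2789 and 2839 CPM with vehicle and 1517, 551 and 1302 CPM with PEGPH20, all 5 lower, and 4 fell at an adjusted p under 0.05 without replicate 5. The 4 endothelial genes summed to 141 to 156 CPM and then 55.8 to 92.5 CPM, all 4 lower, and 2 fell without replicate 5. The 2 plasma cell genes summed to 1694 to 2032 CPM and then 2668 to 3427 CPM, both higher, and 1 rose without replicate 5. With all libraries no gene of these 3 lists passed. Their part in the levels of the lipid genes was not tested. The intervals without replicate 5 still reached 0.68 for Apoa1 and 2.37 for Fabp1, so differences of those sizes were not resolved by 3 libraries against 2.

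**Figure D3:**
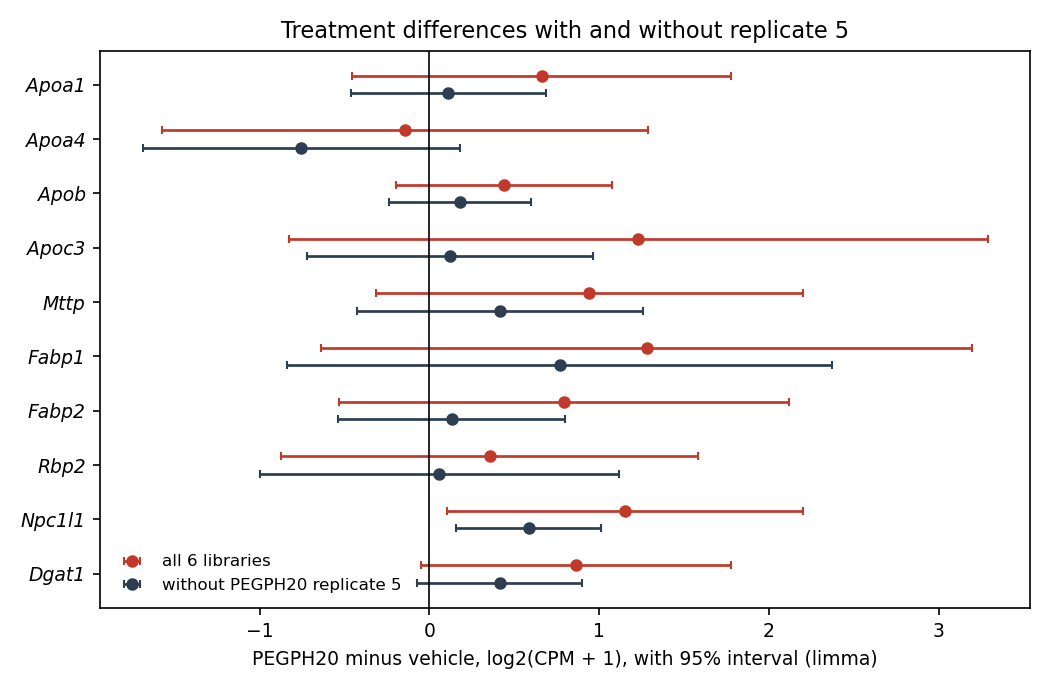
PEGPH20 minus vehicle difference on the log2(CPM + 1) scale with its 95% limma interval for each of the 10 genes, with all 6 libraries and without PEGPH20 replicate 5. The intervals include 0 for every gene except Npc1l1, and leaving out replicate 5 moves each estimate to lower values.

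Within the vehicle group the 10 genes varied more between tumors than most genes did. The highest vehicle library held a median of 2.73 times the lowest over the 10 genes, against 1.22 times over the 6389 genes with a mean of at least 20 CPM. The spread had an order: all 10 were highest of the vehicle group in replicate 1, as were 32.2% of genes, and 9 of 10 were lowest in replicate 3, as were 28.3% of genes. Both held for 9 of 10 members and 16.7% of genes, the exception being Fabp2, lowest in replicate 2. This order says only how these 3 tumors compared, since replicate numbers carry none. The median SD of the vehicle libraries on the log2 scale was 0.71 for the members and 0.19 for all genes.

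The other products of the mature enterocyte followed much the same libraries. Of 16 hydrolases and transporters of the brush border and the enterocyte, among them sucrase-isomaltase, lactase and the glucose importer Slc5a1, all 16 were higher with PEGPH20, with a median difference of 0.76, and none passed the threshold. Without replicate 5, 13 were higher and the median was 0.23. Relative to the vehicle mean, the mean log2 level of that list was 0.46, -0.10 and -0.35 in the vehicle libraries and 0.42, 2.30 and 0.33 in the PEGPH20 libraries. The lipid genes stood at 0.70, -0.01 and -0.69, and then at 0.03, 1.86 and 0.38. Summed lipid genes over summed hydrolases gave 1.70, 1.40 and 1.17 with vehicle and 1.34, 1.54 and 1.52 with PEGPH20. By this ratio the lipid genes were lowest against the hydrolases in vehicle replicate 3 and PEGPH20 replicate 4, while by the mean log2 levels they were also below the hydrolases in replicate 5. Taken relative to the hydrolase list, the group means of Apoa4 and Apoa1 differed by -1.16 and -0.36. Apoa4 was at 0.43, 0.08 and -0.51 with vehicle and -1.66, -1.23 and -0.60 with PEGPH20, and Apoa1 at 0.16, 0.02 and -0.18 and then -0.30, -0.55 and -0.22. In both every PEGPH20 library was below every vehicle library, though by a small gap. The share of all genes that do so on this scale was not counted. These values were singled out after they were seen and have no test. The list mean includes Lct, at 12.5, 8.41 and 0 CPM with vehicle and 12.0, 197 and 34.1 CPM with PEGPH20. Its absence in vehicle replicate 3 lowers the list mean there. The small gap between the groups depends on Lct, so no separation of the groups is read from these values for Apoa4 or Apoa1. Among the other members the group means differed by -0.66 (Rbp2) to 0.26 (Fabp1) on this relative scale.

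**Figure D4:**
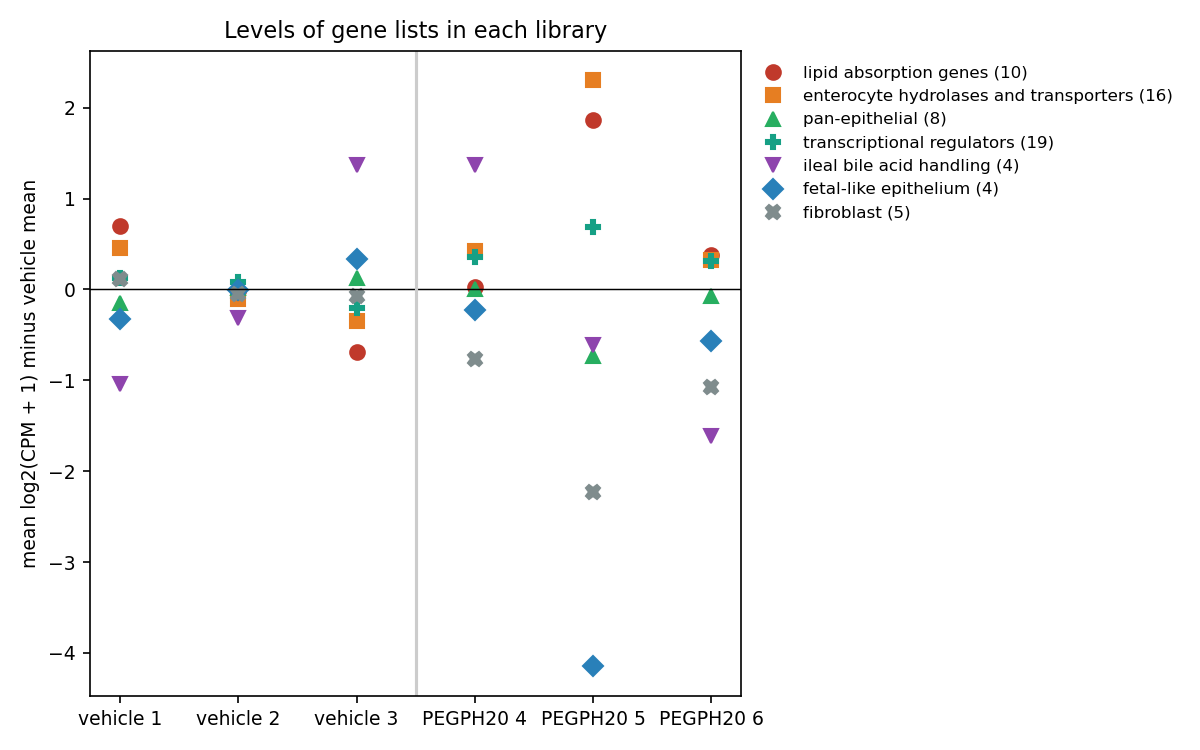
Mean log2(CPM + 1) of each gene list minus its vehicle mean in the 6 libraries, with the number of genes of each list in the legend. The lipid genes reach 1.86 and the hydrolases 2.30 in PEGPH20 replicate 5, where the means of the pan-epithelial and fetal-like lists are lowest. The pan-epithelial genes are divided there, and Vil1 is at its highest.

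Markers of other tissues that make lipoproteins or lipid carriers were low. The hepatocyte list had 4 genes with a row and summed to 4.58 to 19.9 CPM, most of it Ttr, in the same libraries in which Apoa1 alone held 1172 to 5757 CPM. Its highest and lowest levels fell in vehicle replicate 3 and PEGPH20 replicate 5, the libraries lowest and highest in the lipid genes. The adipocyte list summed to 12.5 to 20.3 CPM, and the pancreatic acinar list to at most 0.482 CPM, under the 3-read floor, with 0 reads in PEGPH20 replicates 5 and 6. Sis, a defining transcript of small intestinal enterocytes, was at 500.4 to 1824 CPM, and the tissue label was kept.

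The wider lipid pathway was read from 9 further lists and 3 lists of regional, villus tip and chromosomal neighbours, 98 genes in all, of which 86 were tested. With PEGPH20 54 were higher and 32 lower, and none passed the threshold. The median difference was 0.20, against -0.09 for all genes, and 24.4% had an unadjusted p under 0.05, against 18.0% of all genes. Without replicate 5, 51 were higher, 35 lower, the median was 0.12 and 3 of 86 passed, Isx, Maf and Tm6sf2, against 2.98% of all genes. The same 3 were called by DESeq2 with all libraries, where 2.43% of all genes were. Both counts are near their background and say nothing of the pathway as a whole.

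Isx, a homeobox repressor of genes of carotenoid uptake and conversion in the intestine, read 52.5, 58.5 and 48.9 CPM with vehicle and 86.8, 85.02 and 86.9 CPM with PEGPH20. Its groups did not overlap and its PEGPH20 libraries were nearly equal, replicate 5 included. The difference was 0.69 with all libraries (limma adjusted p = 0.128) and 0.70 without replicate 5 (adjusted p = 0.0233). Maf, a transcription factor known in villus enterocytes, read 201, 191 and 187 CPM and then 366, 969 and 294 CPM, a difference of 1.28 (adjusted p = 0.183), or 0.76 without replicate 5 (adjusted p = 0.0102). Tm6sf2, which helps lipidate apolipoprotein B particles, read 96.8, 73.8 and 71.5 CPM and then 140, 244 and 129 CPM. Its difference was 1.03 (adjusted p = 0.155), or 0.75 without replicate 5 (adjusted p = 0.0290). In all 3 genes the lowest PEGPH20 library lay above the highest vehicle library, as in 9.71% of all genes tested. Since the 3 were named for passing the test, this adds little to it.

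Among genes of fatty acid uptake and activation, 5 of 7 tested were higher, with a median of 0.20. Scp2, a sterol carrier, was at 37.2 ± 1.55 and 70.7 ± 25.2 CPM (0.85, adjusted p = 0.170), and the lipoprotein receptor Scarb1 at 12.8 ± 3.19 and 6.11 ± 1.22 CPM (-0.95, adjusted p = 0.172). Of 7 triglyceride synthesis genes, 4 were higher, with a median of 0.10, and 3 without replicate 5, with a median of -0.10. The intestinal enzyme Mogat2, which acylates monoglycerides just before the Dgat1 step, was at 27.7 ± 12.8 and 64.3 ± 27.2 CPM (1.20, adjusted p = 0.183). Dgat2, the other enzyme of the final step, was at 107 ± 15.6 and 75.0 ± 9.66 CPM (-0.50, adjusted p = 0.191), so the estimates for Dgat1 and Dgat2 had opposite signs and neither passed.

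Of 10 genes of chylomicron assembly and export, 6 were higher, with a median of 0.37, or 0.09 without replicate 5. Beside Tm6sf2, Cideb, a droplet protein that loads lipid onto lipoproteins, was at 145 ± 29.6 and 269.7 ± 81.0 CPM (0.87, adjusted p = 0.170). Of the further apolipoproteins 2 of 6 were tested. Apoc2, the activator of lipoprotein lipase, was at 1.47 ± 1.29 and 5.58 ± 0.728 CPM (1.54, adjusted p = 0.161), near the 3-read floor in vehicle, and Apoe, abundant in macrophages as well, at 400.3 ± 32.8 and 323 ± 36.6 CPM (-0.31, adjusted p = 0.282). Of 7 droplet and lipase genes, 4 were higher, with a median of 0.01, and 3 without replicate 5, with a median of -0.08. Abhd5, the co-activator of triglyceride lipase, was at 35.5 ± 1.64 and 24.3 ± 5.86 CPM (-0.56, adjusted p = 0.230) and the droplet coat protein Plin3 at 125 ± 2.54 and 179.9 ± 48.2 CPM (0.49, adjusted p = 0.231).

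Of 7 sterol transport and esterification genes, 4 were higher, with a median of 0.30. Abca1, the cholesterol exporter that lipidates Apoa1, was at 19.9 ± 3.03 and 12.8 ± 5.33 CPM (-0.67, adjusted p = 0.309). Abcg5, part of the pump that returns sterols to the lumen opposite to Npc1l1, was at 27.3 ± 1.47 and 61.3 ± 46.6 CPM (0.89, adjusted p = 0.321). Of 5 retinoid genes tested, 3 were higher, with a median of 0.23. Lrat, which esterifies retinol delivered by Rbp2, was at 4.41 ± 1.94 and 13.3 ± 6.31 CPM (1.38, adjusted p = 0.173). Of 8 fatty acid oxidation genes tested, 4 were higher, with a median of 0.04. The mitochondrial enzyme Acadl was at 323 ± 21.8 and 221 ± 111 CPM (-0.67, adjusted p = 0.329).

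The transcriptional regulators of these genes were among the lists whose median was not lower without replicate 5. Of 19, 14 were higher with PEGPH20, with a median of 0.33, and 14 were higher without that library, with a median of 0.34. In 7 of them all PEGPH20 libraries were above all vehicle libraries, against 9.71% of all genes. No test sets this list against the others. Gata4, which marks the proximal intestine, was at 19.5 ± 8.32 and 42.9 ± 10.9 CPM (1.16, adjusted p = 0.182). It read 26.5, 21.8 and 10.3 CPM with vehicle and 30.4, 50.0 and 48.2 CPM with PEGPH20. Replicate 4, high in Fabp6, was thus lowest of its group but above every vehicle library. Named after their values were seen, Hnf4a was at 179 ± 13.6 and 224 ± 8.59 CPM (0.33, adjusted p = 0.222) and Hnf4g at 53.3 ± 12.4 and 132 ± 89.8 CPM (1.12, adjusted p = 0.231).

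The ileal list had 4 genes tested, 2 higher and 2 lower. Slc51a and Slc51b, whose levels are given above, differed by 0.76 (adjusted p = 0.377) and 0.81 (adjusted p = 0.439). Of 3 villus tip genes all were higher, with a median of 0.20. Ada, adenosine deaminase, was at 62.0 ± 40.2 and 93.8 ± 61.9 CPM (0.57, adjusted p = 0.581), and the nucleoside importer Slc28a2 at 77.5 ± 5.71 and 88.6 ± 18.7 CPM (0.17, adjusted p = 0.630).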

How the data were processed

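The authors deposited a table of signal values per gene that sum to 1000000 in each library, that is CPM, with a total row that was dropped. Reads were mapped to GRCm38, per the submitters' processing notes, from 75 nt QuantSeq 3′ FWD libraries with optional UMIs, per the labels. The aligner, the counting tool, and the use of strand and UMIs, were not given in the sources used here. Gene IDs were matched to GENCODE M21 (21786 of 21878). Whole reads came back for 100% of values (tolerance 1e-06). The main test was limma 3.58.1 (R 4.3.3) with a trend on log2(CPM + 1), which understates changes of low genes, over 11389 genes kept by filterByExpr (minimum count 10), with Benjamini-Hochberg adjustment. It was tried on simulated data with the same scatter for all genes and no deviating library. That trial does not show how the test behaves with a library like PEGPH20 replicate 5. edgeR 4.0.16 and DESeq2 1.42.0 on the recovered reads, other pseudocounts, filters, scalings, array weights and each library left out were alternatives. Intervals cover 95%, and the floor covers counting error only. The genes named were the 10 members, the 2 of smallest p in each pathway list, any past the threshold and the 5 non-members of most similar profile; a few of these are not reported here. Members and lists were chosen with earlier results of these data known.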

Additional observations from a re-analysis of the deposited data

How the results depend on the processing

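None of the 10 genes was called under any alternative run, except that DESeq2 gave no adjusted p for Apoc3, which was therefore not judged there. The count of genes called over the whole table was 9, but 29 with no filter, 871 with array weights, 277 with DESeq2 and 10 with edgeR, and 1 to 339 when 1 library was left out, highest without PEGPH20 replicate 5; the cause was not tested. Of the 86 pathway genes tested, 0 were called, but 3 with DESeq2 and 0 to 3 when 1 library was left out. With array weights 13 of 86 were called, against 871 of 11389 over all genes tested. Those weights were 0.193 for PEGPH20 replicate 5 and 0.828 to 2.36 for the other libraries. The median difference of the 10 genes, 0.83, ran from 0.16 to 1.09 when 1 library was left out, lowest without PEGPH20 replicate 5, and was 0.43 with array weights, 1.13 with edgeR and 1.15 with DESeq2. Scaling to pan-epithelial genes moved the median of all genes by 0.26 and DESeq2 by 0.11. Under these the median of the 10 genes was 1.09 and 1.15. The difference in summed level, 3926 CPM, ran from 360.5 to 5812 CPM when 1 library was left out. Apoa4, at -0.15, turned to 0.12 under pan-epithelial scaling, 0.14 with edgeR and 0.16 with DESeq2, and ran from -0.76 to 0.40 when 1 library was left out, positive without vehicle replicate 1 (0.30) or PEGPH20 replicate 4 (0.40). Rbp2, at 0.36, ran from -0.15, without vehicle replicate 3, to 0.81; the cause was not tested. No paired analysis was possible because the groups share no replicate number. With 3 libraries a group the intervals of most members span over 1 log2 unit to each side, and genes near the 3-read floor carry little information.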

Other observations

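Apoa1 took a nearly fixed share of the reads of the 10 lipid genes. It held 35.1%, 35.2% and 34.9% in the vehicle libraries and 35.0%, 35.6% and 32.2% in the PEGPH20 libraries, while the sum itself ran from 3355 to 16181 CPM. Its profile across the 6 libraries also lay nearest to the members' mean, at a root mean square difference of 0.15 on the log2 scale, ahead of Mttp (0.18) and Dgat1 (0.25). Fabp1 (0.73), Apoa4 (0.67) and Apoc3 (0.67) lay farthest. The sum includes Apoa1 and the mean includes each gene set against it, so part of this likeness is built in.

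Of 8672 other genes with a mean of at least 10 CPM, those whose profile was nearest to that mean included Khk (0.10), Slc2a5 (0.12), Xdh (0.15) and Ggt1 (0.18). Khk is ketohexokinase, Slc2a5 the fructose importer, Xdh xanthine dehydrogenase and Ggt1 a gamma-glutamyl transferase. Khk read 53.5, 37.1 and 19.5 CPM with vehicle and 35.7, 141 and 42.3 CPM with PEGPH20. Each of these genes was highest in PEGPH20 replicate 5, and likeness over 6 libraries is a description that this library dominates.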
